A study of Mus musculus with 2 samples.

Results

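The MS4A genes encode tetraspan membrane proteins that sit together on mouse chromosome 19. The 9 genes described here, Ms4a1, Ms4a3, Ms4a4b, Ms4a4c, Ms4a4d, Ms4a6b, Ms4a6c, Ms4a6d and Ms4a7, were taken by gene symbol, and all 9 were measured among 19505 named genes, each by 1 probe set. They were set in 2 classes by what the genes are known for: 6 macrophage members (Ms4a6b, Ms4a6c, Ms4a6d, Ms4a4c, Ms4a4d and Ms4a7) and 3 progenitor and lymphoid members (Ms4a3, Ms4a4b and Ms4a1). The place of Ms4a4d in the macrophage class is the least certain, and Ms4a6b is also known from mouse T cells.

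Expression was measured on 2 whole-transcript arrays, 1 per group, in macrophages grown from mouse bone marrow. The cells were given 25 ng/mL of the macrophage growth factor M-CSF on days 0 and 3, in 10% fetal bovine serum, and were used from day 5. The groups were the genotype labelled LysM (+);MC4RTB/TB, called LysM(+) here, and the genotype labelled MC4RTB/TB, called TB/TB here. Both groups carried the TB allele of the melanocortin 4 receptor gene. As background, TB is the usual name of an allele silenced by an inserted block that is excised where Cre is present, and LysM that of a driver which puts Cre under the lysozyme gene Lyz2 in myeloid cells; the labels explain neither name. The labels give no age, strain or number of animals behind an array. With 1 array per group no difference below has a replicate error or a test, and each describes these 2 cultures. The number of arrays limits the precision.

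MS4A proteins are thought to act beside other receptors in the membrane, shaping how those receptors signal. The best known is CD20, the product of Ms4a1 and a target of antibody therapy on B cells, and the family member encoded by Ms4a2 is the beta chain of the high-affinity IgE receptor of mast cells. In human genetics the MS4A cluster is linked to Alzheimer's disease risk and to soluble TREM2, a product of a macrophage and microglial receptor. Several mouse members, among them Ms4a7, Ms4a6c and Ms4a6d, are known as genes of monocytes and macrophages.

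Values are the deposited RMA expression values, taken as log2. Differences are given on that scale as LysM(+) minus TB/TB, and folds depend on the log base being 2, whereas the direction of a difference does not. Genes were counted as lower or higher where the arrays were at least 1.5-fold apart and the brighter value reached 6.12, the median over named probe sets, called the brightness floor. The 23 background control probe sets had values up to 6.81, so a gene below that value could not be told from background. Probe sets bind with different strength, so the values of different genes were not ranked against each other. Across all named genes the median difference was -0.01, and across the 10137 genes that reached the floor it was 0.07. Macrophage markers were bright in both cultures: all 9 measured markers, among them Csf1r (17.69 in LysM(+) and 17.89 in TB/TB) and Adgre1 (17.01 and 17.24 in the same order), lay far above the floor. No marker of that list passed 1.5-fold (0 genes), beside 16.1% of all genes at the floor in either direction. Of the 9 markers 7 were lower in LysM(+), beside 42.9% of all genes at the floor, and their median difference was -0.20. Mertk had the lowest difference, -0.57, just short of the 1.5-fold line. Itgam (0.24) and Cd14 (0.14) were higher in LysM(+).

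All 6 macrophage members lay above the background control range on both arrays, Ms4a4d by 0.21 in LysM(+) and 0.14 in TB/TB and the other 5 by wide margins, whereas the 3 progenitor and lymphoid members lay within that range on both. Ms4a3 still reached the floor on both arrays, so 7 of the 9 members did. Of the 9 members 3 were lower in LysM(+) by at least 1.5-fold, all of them macrophage members (Ms4a6b, Ms4a6c and Ms4a4c), and 0 were as much higher. Among all genes at the floor 5.16% were as much lower and 10.9% as much higher. A mean value of at least 10, a line set after the data were seen, was reached by 3906 genes, 5 members among them. Of those genes 2.48% were as much lower and 8.24% as much higher, against 3 and 0 of those 5 members. Probes of these related genes could share signal, so the 3 may not be separate observations. The macrophage members had a median difference of -0.43, with 5 of 6 lower by any amount, among them Ms4a7 by a margin of -0.02 that changed sign with quantile normalization. For comparison, 42.9% of genes at the floor, and 39.1% of those with a mean of at least 10, were lower by any amount. The progenitor and lymphoid members had a median difference of -0.11 over values at background level, which cannot show whether such cells or transcripts differed.

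**Figure D1:**
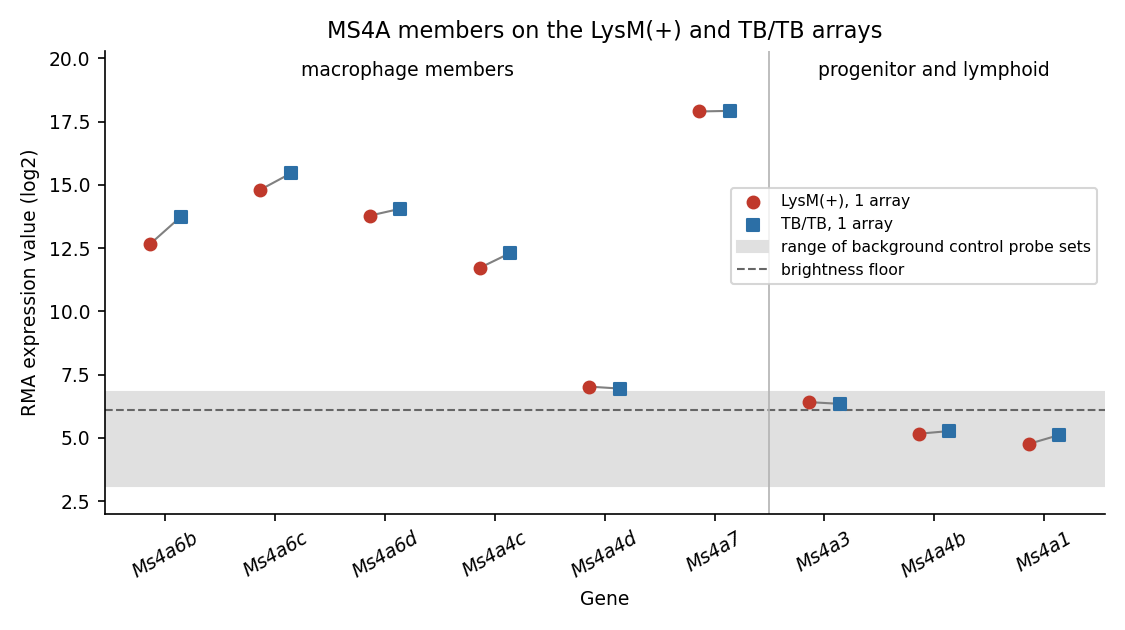
RMA expression values (log2, vertical axis) of the 9 MS4A genes in LysM(+) (circles) and TB/TB (squares), 1 array per group, with the values spanned by background controls shaded and the brightness floor of 6.12 dashed. The circles of Ms4a6b, Ms4a6c and Ms4a4c lie below their squares, those of Ms4a7 and Ms4a4d are level with them, and Ms4a3, Ms4a4b and Ms4a1 lie inside the shaded range. Heights of different genes are not comparable.

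Among the macrophage members Ms4a6b differed most. Its log2 values were 12.66 in LysM(+) and 13.74 in TB/TB, and the difference of -1.08 is 2.11-fold lower in LysM(+). Both values lay well above background, by 5.85 and 6.93 over the brightest background control. Of 10137 genes at the floor, 57 had a lower difference. At 2-fold, Ms4a6b was the sole member counted, beside 0.858% of all genes at the floor that were as much lower.

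Ms4a6c, a gene of monocytes and macrophages that lies close to Ms4a6b in the cluster, had values of 14.80 in LysM(+) and 15.45 in TB/TB. The difference was -0.65, or 1.57-fold lower in LysM(+), and 401 genes at the floor had a lower one. Ms4a6d, the remaining measured gene of the Ms4a6 group, had values of 13.78 in LysM(+) and 14.06 in TB/TB and a difference of -0.27, short of the 1.5-fold line. All of the Ms4a6 genes were thus lower in LysM(+), but by unequal amounts: the difference of Ms4a6b was lower than that of Ms4a6c by -0.43 and than that of Ms4a6d by -0.81 on the log2 scale.

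Ms4a6b and Ms4a6c also resembled each other just upstream of their starts, which is why these sequences are shown. RefSeq promoter windows of build GRCm38.p6 were found for 7 of the 9 members, all but Ms4a1 and Ms4a6d. Whether Ms4a6d shares the letters described below is therefore not known. Within the 250 bases before the start, the longest unbroken run shared by any pair of these 7 was 48 bases. That pair was Ms4a6b (chr19:11518309-11518558, plus strand) and Ms4a6c (chr19:11469118-11469367, plus strand). Read 5′ to 3′, capitals mark that run.
Ms4a6b: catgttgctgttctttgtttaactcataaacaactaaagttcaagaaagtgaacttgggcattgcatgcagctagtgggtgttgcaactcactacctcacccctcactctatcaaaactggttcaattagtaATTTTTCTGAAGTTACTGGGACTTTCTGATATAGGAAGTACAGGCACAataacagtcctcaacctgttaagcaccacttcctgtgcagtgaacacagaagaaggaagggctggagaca
Ms4a6c: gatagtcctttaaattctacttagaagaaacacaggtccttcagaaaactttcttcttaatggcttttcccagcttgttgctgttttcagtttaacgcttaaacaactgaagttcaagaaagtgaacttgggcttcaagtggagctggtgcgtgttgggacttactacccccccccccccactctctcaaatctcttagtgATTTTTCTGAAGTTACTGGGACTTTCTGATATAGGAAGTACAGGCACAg
The run began 118 bases before the start of Ms4a6b and 49 bases before that of Ms4a6c. In the best matching stretch of a local alignment, 152 of 182 aligned positions were identical (83.5%). Aligned over the whole 250 bases, 149 of 325 positions were (45.8%), a share like that of other pairs, such as Ms4a4c and Ms4a6b at 50.0%. Of 32851 promoter windows in the table, 2 held any word of 16 bases from the run on either strand, and both were these windows. The shared letters describe how alike the upstream regions of these neighbouring genes are and carry no measurement of binding.

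Ms4a4c, which is counted among the interferon-inducible genes of mouse, had values of 11.72 in LysM(+) and 12.31 in TB/TB. Its difference of -0.59 was 1.51-fold lower in LysM(+) and lay at the edge of the 1.5-fold line at 0.58, and 508 genes at the floor had a lower one. After centring on the median difference it no longer passed that line, so 2 members were counted there. Its closest relative by promoter, Ms4a4b, a gene known from mouse T cells, was dim, with values of 5.17 in LysM(+) and 5.27 in TB/TB, both under the floor. The upstream windows of these genes were alike, with 184 of 251 positions identical (73.3%) in the best matching stretch and 68.8% over the whole windows. Each held GAGGAA, the core letters of the site of PU.1, the factor that directs myeloid differentiation. The last 100 bases before the start are shown for Ms4a4c (chr19:11407561-11407660, plus strand) and Ms4a4b (chr19:11443458-11443557, plus strand), 5′ to 3′, with GAGGAA in capitals.
Ms4a4c: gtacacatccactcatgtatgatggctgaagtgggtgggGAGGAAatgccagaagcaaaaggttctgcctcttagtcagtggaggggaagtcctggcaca
Ms4a4b: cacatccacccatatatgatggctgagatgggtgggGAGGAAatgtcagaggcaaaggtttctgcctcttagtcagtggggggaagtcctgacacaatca
On either strand GAGGAA stood in the windows of 2 of 7 members, Ms4a4c and Ms4a4b, and in 23.3% of all 32851 windows. Ms4a4c lay well above background in these macrophages and Ms4a4b at background, and any part of these letters in either value was not tested. The interferon response element, searched as GAAANNGAA with a further A at its end on either strand, stood in 0 of 7 members and in 2.98% of all windows. Without that last A, a form chosen after the sequences were seen, it stood in 3 of 7 members, Ms4a6b, Ms4a6c and Ms4a7, and in 7.13% of all windows. In Ms4a6b and Ms4a6c the match lies within a longer stretch of identical letters, so these are not separate matches. Ms4a7 had an additional window in which a match could count. The 3 of 7 therefore cannot be weighed against 7.13%, a share of single windows. A match is a match of letters and no sign of a factor at the site.

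Ms4a7, a macrophage gene used in mouse brain to tell marrow-derived macrophages from microglia, was nearly level. It had values of 17.90 in LysM(+) and 17.92 in TB/TB, near the top of the measured range of 19.51 on both arrays. The difference was -0.02, which became 0.10 after quantile normalization, so no direction is given. Ms4a4d had values of 7.03 in LysM(+) and 6.95 in TB/TB, just above the brightest background control, and a difference of 0.08. The macrophage members thus differed by unequal amounts on these arrays: Ms4a6b, Ms4a6c and Ms4a4c were counted as lower, and Ms4a6d, Ms4a7 and Ms4a4d were not.

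**Figure D2:**
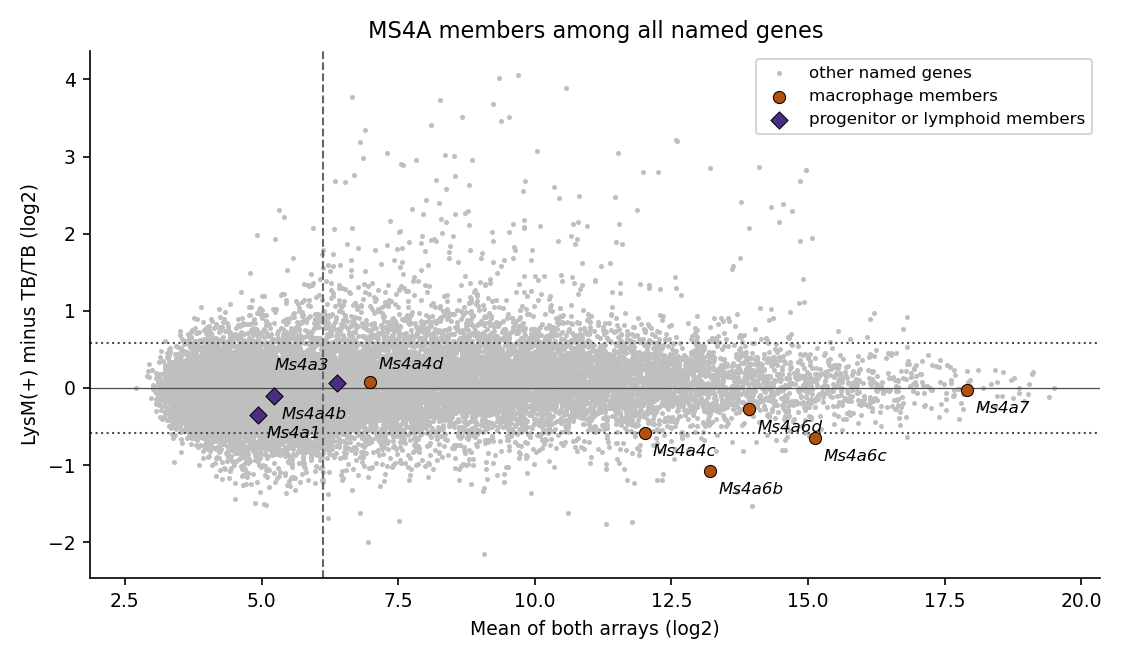
Difference between the arrays (LysM(+) minus TB/TB, log2, vertical axis) against the mean of both arrays (log2, horizontal axis) for 19505 named genes, with macrophage members as circles and progenitor and lymphoid members as diamonds. Dotted lines mark 1.5-fold and the dashed line the brightness floor. Ms4a6b, at -1.08, lies near the lower edge of the points, and Ms4a7 and Ms4a4d lie near 0.

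The progenitor and lymphoid members were at background in both cultures. Ms4a3, which marks granulocyte and monocyte progenitors in mouse, had values of 6.42 in LysM(+) and 6.35 in TB/TB, over the floor but within the background control range. Ms4a1, the CD20 gene of B cells, had values of 4.76 in LysM(+) and 5.12 in TB/TB, and its difference of -0.36 rests on background signal. The markers of the same cell types were also mostly dim. Of 9 measured B cell genes 3 reached the floor and 0 passed 1.5-fold, and the defining genes Cd79a (4.24 in LysM(+) and 4.29 in TB/TB) and Pax5 (4.25 and 4.41 in the same order) lay under it. Blnk, an adaptor first known from B cells and also used by macrophages, was the bright member of that list, at 14.04 in LysM(+) and 13.90 in TB/TB. Of 9 measured T cell genes 3 reached the floor (Il7r, Cd4 and Cd2) and 0 passed 1.5-fold, while Cd3e (3.66 in LysM(+) and 4.11 in TB/TB) and the rest lay under it. Among all genes at the floor 16.1% passed 1.5-fold in either direction, so 0 of 3 sets neither list apart. The summed linear signal of the B cell list in LysM(+) was 110% of that in TB/TB, and that of the T cell list 77.6%; these sums come largely from Blnk and from Il7r.

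Among 10 progenitor and primary granule genes, set beside Ms4a3, 4 reached the floor, 1 was higher and 1 lower. Elane, the neutrophil elastase gene of promyelocytes, was 2.26-fold higher in LysM(+) (7.64, against 6.46 in TB/TB, a value within the background range). Gfi1, a repressor needed for granulocyte formation, was 2.04-fold lower (5.60 in LysM(+), under the floor, against 6.62 in TB/TB, within the background range). Mpo, the myeloperoxidase gene, was the sole gene of the list above the background range on both arrays, at 9.99 in LysM(+) and 10.29 in TB/TB, a difference of -0.30 that did not pass 1.5-fold. The median difference of this list was -0.04. The stem and progenitor genes Kit, Cd34 and Flt3 lay under the floor on both arrays, and Elane and Mpo differed in opposite directions.

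The other measured MS4A genes were at background level. All 9, namely Ms4a2, Ms4a5, Ms4a8a, Ms4a10, Ms4a13, Ms4a15, Ms4a18, Ms4a19 and Ms4a20, lay between 3.70 and 5.16 on both arrays, with 0 at the floor. Ms4a2, the IgE receptor gene of mast cells, had 3.70 in LysM(+) and 4.09 in TB/TB, and of 8 mast cell and basophil genes 1 reached the floor. That gene, Hdc, the histamine-making enzyme, was 1.51-fold lower in LysM(+), beside 5.16% of all genes at the floor that were at least 1.5-fold lower. The sign of differences at this level carries little: 7 of these 9 MS4A genes were lower in LysM(+), while 59.2% of all genes under the floor were. Tmem176a and Tmem176b, genes of MS4A-related membrane proteins of antigen-presenting cells, were bright and differed by -0.19 (13.81 in LysM(+) and 13.996 in TB/TB) and by -0.27 (16.45 in LysM(+) and 16.73 in TB/TB). Neither passed 1.5-fold.

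Partner and signalling genes are those known or thought to work with MS4A proteins. Of 8 measured, 6 reached the floor and 0 were counted in either direction. Among all genes at the floor 16.1% were counted, so 0 of 6 does not set this list apart. Its median difference was -0.02. Trem2, the receptor whose soluble form is linked to the human cluster, had 15.98 in LysM(+) and 16.08 in TB/TB, and its adaptor gene Tyrobp 16.48 in LysM(+) and 16.51 in TB/TB. Fcer1g, the gene of a signalling chain shared by Fc and IgE receptors, had 18.20 in both groups. The kinase gene Syk, which acts below these receptors, had the lowest difference, -0.48 (13.56 in LysM(+) and 14.04 in TB/TB), and the calcium sensor gene Stim1 the highest, 0.55 (8.76 in LysM(+) and 8.22 in TB/TB). Tnfrsf18, which encodes GITR, a T cell receptor that the Ms4a4b protein is known to associate with in mouse, lay under the floor like Ms4a4b itself.

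Interferon response and cell cycle genes also differed between these arrays, and their part in the MS4A differences was not tested. Of 23 measured interferon response genes 21 reached the floor, 11 were counted as lower in LysM(+) and 0 as higher. Among all genes at the floor 5.16% were as much lower and 10.9% as much higher. The list's median difference was -0.59, the value of Ifit2. That gene is among the 11, but its values (5.93 in LysM(+) and 6.52 in TB/TB) lay within the background range. Usp18, a brake on interferon signalling, was 2.53-fold lower, and the antiviral genes Rsad2, Ifit3 and Xaf1 were 2.46-fold, 2.29-fold and 2.16-fold lower. By any amount, 2 of the 23 were higher in LysM(+). These were Ifit1, by 0.29 (8.62 in LysM(+) and 8.33 in TB/TB), and Oasl1, by 0.42 under the floor. Of 7 measured monocyte genes 1 was counted as higher and 0 as lower, and 5 were higher by any amount, beside 57.1% of all genes at the floor, with a list median of 0.36. The 1 counted was Cx3cr1, the fractalkine receptor gene, at 9.15 in LysM(+) and 7.25 in TB/TB, while Nr4a1 (6.42 in LysM(+) and 6.91 in TB/TB) differed by -0.49. Of 19 measured cell cycle genes 18 were counted as higher in LysM(+), beside 10.9% of all genes at the floor, and the list's median difference was 2.01. Of the 18, 15 reached the floor on both arrays, and the others did so through LysM(+) alone. Ube2c, Plk1 and Ccnb2 were 16.7-fold, 16.1-fold and 11.4-fold higher, whereas Ccna2 (10.13 in LysM(+) and 6.40 in TB/TB) had a TB/TB value within the background range, so its fold is not exact. The same limit holds for Cdk1, Bub1, Birc5, Aurka, Top2a and Cdc20, and Cdc20 lay within that range on both arrays. In RNA from a whole culture, fewer cells that make a transcript and less of it per cell cannot be told apart.

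**Figure D3:**
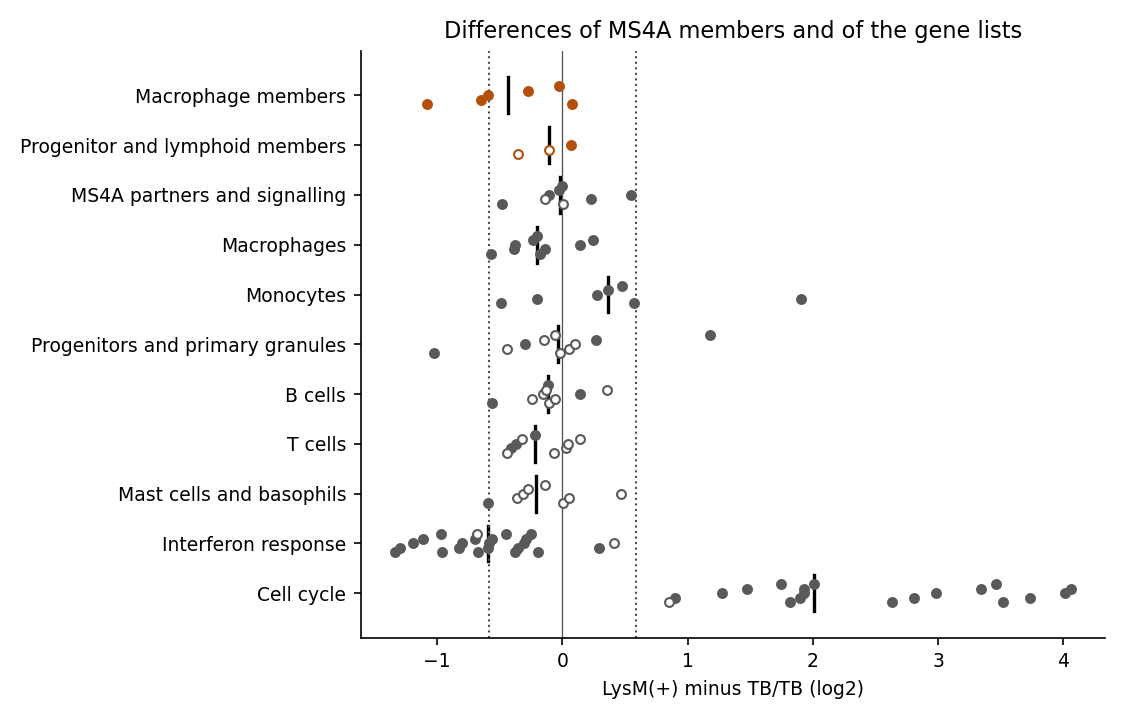
Differences (LysM(+) minus TB/TB, log2, horizontal axis) of the MS4A members and of 9 gene lists, 1 point per gene, filled where the brighter value reached the floor and open where it did not, with a bar at each median. The macrophage members (median -0.43) lie mostly left of 0, between the macrophage markers (median -0.20) and the interferon response genes (median -0.59), and the cell cycle genes (median 2.01) lie to the right.

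The counted members lie in one stretch of the cluster. Of the 18 measured MS4A genes 7 reached the floor, and these all lie in the part from Ms4a7 to Ms4a3. No MS4A gene outside that part could be counted, so the grouping follows in part from which genes were bright. In the gene order of the RefSeq table on chromosome 19, the run from Ms4a4c holds Ms4a4c, Ms4a4b, Ms4a6c, Gm8369, Ms4a6b, Ms4a4d and Ms4a6d among the named and measured genes. The lower genes Ms4a4c, Ms4a6c and Ms4a6b are read from the plus strand, like the uncounted Ms4a4b and Ms4a4d between and beside them. Gm8369, a predicted gene between Ms4a6c and Ms4a6b, was also counted as lower, with 5.38 in LysM(+), under the floor, and 7.07 in TB/TB. Inside the span from the outermost MS4A genes, 4 of 20 named genes were lower and 1 was higher, and 9 reached the floor. The higher one was AW112010, known in mouse macrophages as a transcript induced by bacterial stimuli, at 7.63 in LysM(+) and 6.97 in TB/TB. Of the 20 named genes that border the span, 10 on each side, 8 reached the floor; 0 were lower and 1 was higher, Tmem109, by 0.61, and their median difference was 0.07. With 5.16% of all genes at the floor lower, a count of 0 among 8 does not set the bordering genes apart.

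**Figure D4:**
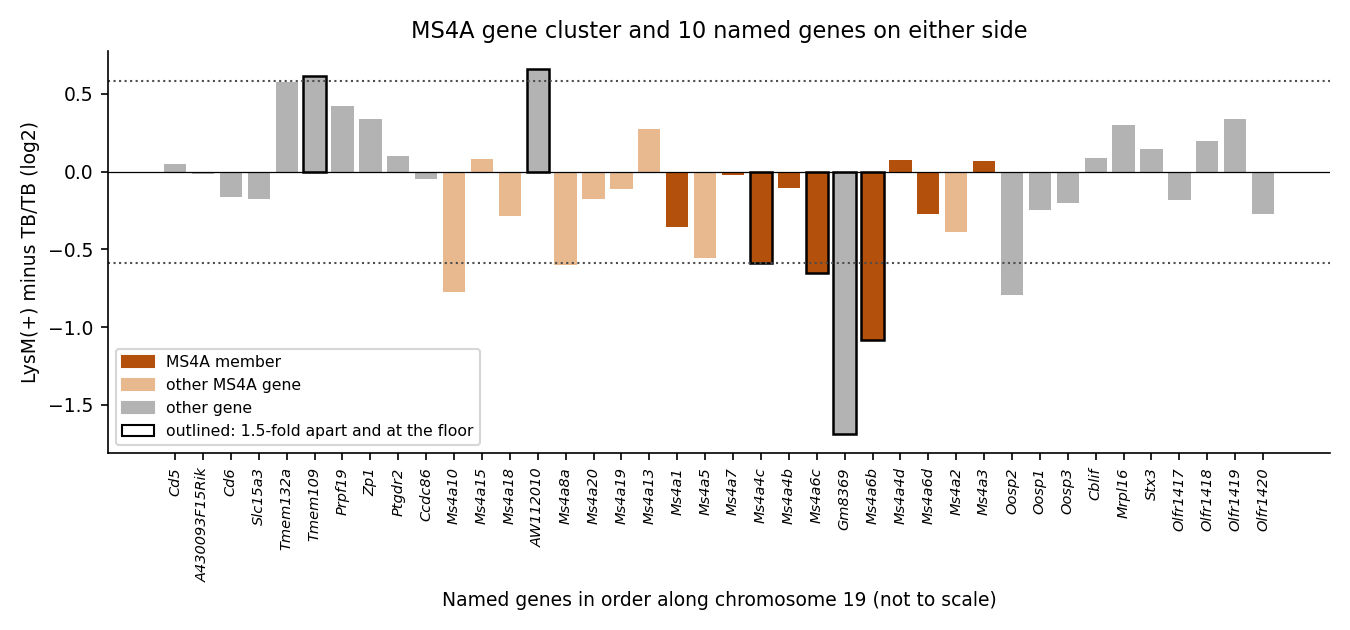
Difference (LysM(+) minus TB/TB, log2, vertical axis) of each named gene in the MS4A cluster and of 10 named genes on either side, in gene order along chromosome 19 and not to scale. Bars are outlined where a gene was at least 1.5-fold apart and reached the floor: Ms4a4c, Ms4a6c, Gm8369 and Ms4a6b below 0, AW112010 and Tmem109 above. Most other bars of MS4A genes are of genes at background level.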

How the data were processed

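Per the submitters' processing notes, the deposited values are RMA expression values made with Affymetrix Expression Console (background correction, normalization between arrays and probe summary). Neither tool has a version given in the sources used here. Deposited values were taken as log2 from the method's name; the lowest and highest were 2.71 and 19.51 in LysM(+), and 2.57 and 19.51 in TB/TB. RMA values seldom reach so high, and a later transformation by the authors is possible. No scanner intensities were used here.

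Of 28846 probe sets, 19572 had a gene symbol in the platform annotation; their 19505 genes were all matched by Entrez ID to RefSeq GRCm38.p6, used for symbols and gene order, and probe sets of a gene were averaged. Groups came from the genotype label. With 1 array per group no test was run. MS4A genes are close relatives whose probes could share signal, so the lower members may not be separate observations. No measured pair had equal values, but partly shared signal would not make values equal, so this cannot decide the question. Calls used 1.5-fold and the floor of 6.12. The members and lists were chosen with earlier results of these data known, and the mean value of 10 was set after the data were seen. Named are every member, the other MS4A genes with Tmem176a and Tmem176b, the counted genes in or beside the cluster, and up to 4 counted genes of each list; other named genes illustrate a list and were chosen after their values were seen. Listed genes without a named probe set, and Ms4a4a, Ms4a12 and Ms4a14, were not analysed here. Promoter windows are RefSeq's, cut to the 250 bases before the start and aligned with Biopython 1.88. Alternatives were centring, quantile normalization, loess (span 0.4, statsmodels 0.14.6), the brightest probe set, a 2-fold line, and other floors. Calling was also run on simulated data, with seeded differences much larger than 1.5-fold in genes above the floor. That run cannot show how often calls near the 1.5-fold line, or calls of unchanged genes, are wrong.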

Additional observations from a re-analysis of the deposited data

How the results depend on the processing

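Ms4a6b and Ms4a6c kept their direction and stayed at least 1.5-fold lower under centring, quantile normalization, loess, the brightest probe set, no floor and a floor at the highest background control; their differences ran from -1.15 to -1.07 and from -0.74 to -0.65. Ms4a4c ran from -0.68 to -0.58 and fell short of 1.5-fold by centring, which left 2 members counted. At 2-fold 1 member was counted, a macrophage member, and over all genes 87 were lower in place of 523; with no floor 1075 were. Ms4a7 changed sign with quantile normalization (0.10). Over members reaching the floor, Ms4a3 alone is left of the progenitor and lymphoid members, with a median of 0.068. The following were chosen after seeing the data. Without Ms4a4d the macrophage members' median was -0.59. With Ms4a6b counted as a lymphoid member it was -0.27, and the progenitor and lymphoid members then had 1 counted and a median of -0.23. No paired analysis was possible because each group has 1 array, and for the same reason no array could be left out. Signal over background limits Ms4a1, Ms4a3, Ms4a4b and Ms4a4d, whose values lie in or next to the range of the background controls.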
